A study of Mus musculus with 32 samples.

Results

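A set of 9 genes that mark mast cells and basophils was followed through the 24 RNA-seq libraries of a mouse study of Jarid2, an accessory subunit of Polycomb repressive complex 2. The 9 genes, Cpa3, Ms4a2, Fcer1a, Mcpt8, Prss34, Gzmb, Cma1, Tpsb2 and Hdc, were chosen by name and found by symbol among the 41388 genes of the count tables. RNA came from sorted bone marrow cells of C57BL/6 mice. Cells negative for lineage markers and CD48 and positive for cKit and Sca1 were split by CD150, with CD150+ cells taken as haematopoietic stem cells (HSC) and CD150- cells as multipotent progenitors (MPP). In the Vav cohort, of 8 weeks of age, the groups were controls labelled wild-type with Vav-CRE and Jarid2-KO with Vav-CRE, each as HSC and as MPP with 3 libraries. Vav-Cre is a recombinase active across blood cells from fetal life on. In the Mx1 cohort, labelled 10 weeks of age and 2 months after pIpC, 3 genotypes were compared, namely controls labelled wild-type, mice with Jak2V617F, and mice that joined Jak2V617F to Jarid2-KO, called the double mutant here. For Mx1-CRE the series' design text names Jarid2-KO alone and no group with Jak2V617F alone, so every value given here for Jak2V617F rests on the labels of the samples. All of these carried Mx1-CRE, which pIpC induces in blood and other tissues, and each was sequenced as HSC and as MPP with 2 libraries. Jak2V617F is an activating variant of a cytokine-receptor kinase found in myeloproliferative neoplasms. The protocol describes pools of marrow from several males and females, with pool sizes that differ between its sentences, so p-values measure the spread between pools. The 8 ChIP samples were not analysed here.

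Mast cells and basophils carry the high-affinity receptor for IgE on their surface. When antigen cross-links the bound IgE, they release granules that hold histamine and proteases. Basophils mature in the marrow and enter the blood, whereas mast cells leave the marrow as progenitors and mature in tissues, and the proteases differ between them. In the mouse, Mcpt8 and Prss34 are proteases of basophils, and Cma1 and Tpsb2, a chymase and a tryptase, are proteases of connective tissue mast cells. Cpa3, a carboxypeptidase, is found in both and in their progenitors. Transcription of several of these genes in mast cells and basophils depends on GATA factors.

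The bases just before the start of 4 genes are shown because they hold AGATAA, 1 form of the GATA motif, on either strand. A further reason is that these 4 genes, with Mcpt8, had lower values in Jarid2-KO MPP than in control MPP. The sequences are the 250 bases upstream of the start, from RefSeq on GRCm38.p6, and 8 of the 9 genes matched that table (Tpsb2 did not). Capitals mark AGATAA or, on the other strand, TTATCT. The windows are chr3:20242182-20242431 (minus strand) for Cpa3, chr17:25298144-25298393 (plus strand) for Prss34, chr19:11623720-11623969 (minus strand) for Ms4a2 and chr1:173227230-173227479 (minus strand) for Fcer1a.
Cpa3: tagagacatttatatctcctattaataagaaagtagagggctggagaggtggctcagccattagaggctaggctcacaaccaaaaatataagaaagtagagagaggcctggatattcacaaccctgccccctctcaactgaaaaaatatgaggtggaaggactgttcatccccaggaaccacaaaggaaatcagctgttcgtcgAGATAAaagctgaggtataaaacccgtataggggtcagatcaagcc
Prss34: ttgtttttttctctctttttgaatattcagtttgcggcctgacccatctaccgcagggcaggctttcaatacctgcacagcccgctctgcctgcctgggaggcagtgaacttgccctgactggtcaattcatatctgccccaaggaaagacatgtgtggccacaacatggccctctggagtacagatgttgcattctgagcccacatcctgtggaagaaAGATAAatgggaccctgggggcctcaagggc
Ms4a2: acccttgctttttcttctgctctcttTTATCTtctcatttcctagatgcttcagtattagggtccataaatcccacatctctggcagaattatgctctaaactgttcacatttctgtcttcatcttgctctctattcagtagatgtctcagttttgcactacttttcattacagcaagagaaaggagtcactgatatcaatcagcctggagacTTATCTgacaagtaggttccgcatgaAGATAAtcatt
Fcer1a: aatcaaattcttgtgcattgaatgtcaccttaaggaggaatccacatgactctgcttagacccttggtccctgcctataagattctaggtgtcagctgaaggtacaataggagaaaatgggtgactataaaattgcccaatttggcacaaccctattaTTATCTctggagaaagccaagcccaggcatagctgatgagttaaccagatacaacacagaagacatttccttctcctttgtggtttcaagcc
The motif lay 46 bases before the start in Cpa3, 31 in Prss34 and 92 in Fcer1a, counted to its first base. Ms4a2 held it 3 times, at 224, 37 and 11 bases. The other 4 windows (Mcpt8, Gzmb, Cma1 and Hdc) held no match to these letters, against 9.99% of all 32851 promoter windows of this length with at least 1. Other forms of the GATA motif were not searched. Such letters occur in the windows of Cma1 (ctatct) and Hdc (tgatag), so no match to AGATAA does not mean that a GATA motif is absent. A match describes letters only.

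Library totals were 10473535 to 27232379 counts in the Vav and 7852483 to 20724168 in the Mx1 cohort, so 3 counts, the limit that a count of 0 allows, came to 0.11 to 0.286 and to 0.145 to 0.382 CPM, which is counts scaled to the library total. Jarid2 itself stood at 80.2 to 145 CPM in the Vav libraries labelled Jarid2-KO and at 77.6 to 126 CPM in their controls. In the Mx1 cohort it stood at 68.3 and 169 CPM in double mutant HSC and 68 and 45.6 in control HSC. Double mutant MPP held 52.6 and 93.2 CPM and control MPP 62.7 and 53.7. Counts over the whole gene do not check a deletion of some exons. Several Mx1 libraries go against their sort labels or stand apart. Slamf1, which encodes CD150, stood at 57.4 to 95.5 CPM in Vav HSC and 2.19 to 14.1 in Vav MPP, but at 0.196 and 5.21 CPM in the Mx1 libraries labelled control HSC, 12.7 and 5.04 in those labelled Jak2V617F HSC and 30.8 and 124 in double mutant HSC. The 6 Mx1 MPP libraries stood at 1.09 to 8.15 CPM, so Slamf1 in Mx1 HSC was low in control and Jak2V617F and high in the double mutant, and its part in the differences between these groups was not tested. Of 20 heart muscle genes, written down after such transcripts were seen, the summed share exceeded 4% of all counts in 6 Mx1 libraries. Those were control MPP replicate 2, Jak2V617F HSC replicate 2, both Jak2V617F MPP, double mutant HSC replicate 1 and double mutant MPP replicate 1. The share ran from 0.52% to 9.21% over all 12 Mx1 libraries and from 0.00064% to 0.0034% over the Vav libraries. The Mx1 libraries under 4% thus held heart transcripts as well. In Vav, Jarid2-KO MPP replicate 1 had the highest neutrophil granule transcripts of its cohort.

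**Figure D1:**
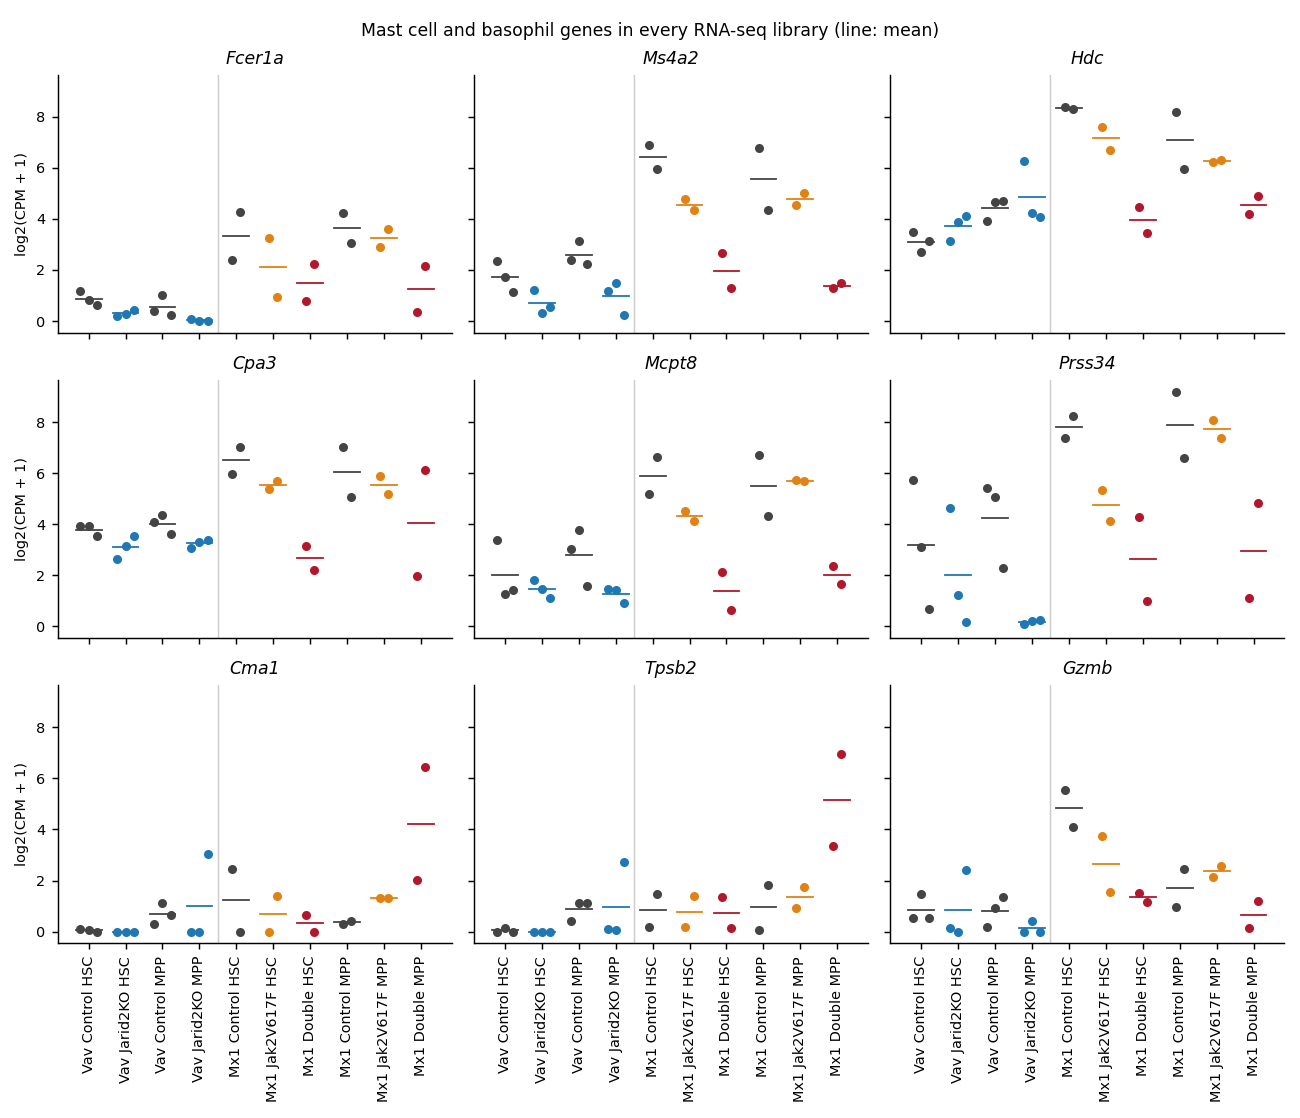
Level of each gene as log2(CPM + 1) in every library, with a point per library and a line at the group mean of these values; Vav groups stand left of the vertical line and Mx1 groups right of it. Prss34 lies near 0 in all 3 Vav Jarid2-KO MPP libraries, and Hdc, Ms4a2 and Mcpt8 lie lowest of the Mx1 groups in both double mutant groups.

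Per kilobase of gene length, the most abundant of the 9 was Prss34 in both cohorts, with a mean of 11.2 RPKM over the 12 Vav and 116 over the 12 Mx1 libraries. Cpa3 (7.73 RPKM), Mcpt8 (4.3) and Hdc (3.05) followed in the Vav cohort, and the other 5 averaged 0.394 to 0.85 RPKM. In the Mx1 cohort the order was Mcpt8 (39.7 RPKM), Cpa3 (35.6), Hdc (20), Ms4a2 (12.4), Tpsb2 (11.2), Cma1 (7.74), Fcer1a (6.72) and Gzmb (5.56). The lowest and highest library of a gene lay far apart, from 0.0515 to 43 RPKM for Prss34 in the Vav cohort and from 0.82 to 482 in the Mx1 cohort, and neighbours in either order overlapped in their ranges. The 9 genes summed to 22.9 to 101 CPM per Vav library and 21.5 to 1239 CPM per Mx1 library. The cohorts were processed and fitted separately, so these levels stand side by side without a test. In bulk RNA, fewer cells of a type and less RNA per cell cannot be told apart.

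The first comparison asked what loss of Jarid2 alone changes. In Vav MPP, the basophil proteases, the IgE receptor chains and Cpa3 stood lower in Jarid2-KO than in every control library, but none passed the test across all genes. By edgeR's quasi-likelihood test with Benjamini-Hochberg adjustment, 0 of the 9 genes passed at an adjusted p under 0.05, against 0.948% of the 15818 genes tested. At an unadjusted p under 0.05 the count was 5 of 9, against 19.3% of all genes, and DESeq2 called 3 (Ms4a2, Mcpt8 and Prss34), against 7.17%. The 5 whose libraries did not overlap, all lower, compare with 12.6% of all genes lower without overlap. The median log2 fold change of the 9 was -2.22, beside 0.0242 over all genes.

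Fcer1a (ENSMUSG00000005339, mm10 chromosome 1, 173221271 to 173227229) encodes the IgE-binding alpha chain of the receptor. It had 7, 21 and 4 counts in control MPP and 1, 0 and 0 in Jarid2-KO MPP. Pooled over libraries, 32 counts against 1 give a ratio of 21.9 with a 95% exact conditional binomial interval of 3.66 to 891, which covers counting error only. The fitted difference had an adjusted p of 0.102 in edgeR. In HSC, Fcer1a stood at 1.25, 0.756 and 0.551 CPM in control and 0.149, 0.209 and 0.333 in Jarid2-KO libraries, again without overlap (log2 -1.93, SE 0.88, edgeR adjusted p = 0.285). These are 3 to 17 counts per library.

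Ms4a2 (ENSMUSG00000024680, chromosome 19, 11615523 to 11623719) encodes the beta chain, which amplifies the receptor's signal. In MPP it stood at 4.31, 7.79 and 3.75 CPM in control and 1.25, 1.84 and 0.191 CPM in Jarid2-KO libraries. No Jarid2-KO MPP library reached the lowest control (log2 -2.22, SE 0.72, edgeR adjusted p = 0.129). In HSC, the values were 4.04, 2.27 and 1.21 CPM in control and 1.35, 0.251 and 0.444 CPM in Jarid2-KO, and there 1 Jarid2-KO library overlapped the controls (log2 -1.94, SE 0.74, adjusted p = 0.212 in edgeR).

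Prss34 (ENSMUSG00000056399, chromosome 17, 25298394 to 25300161) gave the widest gap between groups. Control MPP held 41.2, 32.1 and 3.92 CPM, and Jarid2-KO MPP held 0.0627, 0.167 and 0.191 CPM, which are 1, 3 and 2 counts. The lowest control library lay above all 3 Jarid2-KO libraries (log2 -7.47, SE 2.26, edgeR adjusted p = 0.12). In HSC, Prss34 ran from 0.588 to 52.3 CPM among the controls (median 7.62) and from 0.111 to 23.8 CPM among Jarid2-KO libraries (median 1.34). Replicates of either HSC group thus lay further apart than the groups (log2 -1.31, SE 1.5, adjusted p = 0.686 in edgeR). The difference between the MPP and the HSC effect of Jarid2-KO, a log2 of -6.16 (SE 2.71), had an unadjusted p of 0.0438 and an adjusted p of 1 in edgeR. It was the only 1 of the 9 genes under 0.05 before adjustment in that comparison, where 2.65% of all genes were and 0% passed after it. DESeq2 called 1 gene there, Cma1, which has no count in Jarid2-KO HSC, against 0.0444% of genes.

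Mcpt8 (ENSMUSG00000022157, chromosome 14, 56082166 to 56085216), the other basophil protease, stood at 7.21, 12.7 and 1.98 CPM in control MPP. In Jarid2-KO MPP it stood at 1.75, 1.67 and 0.859 CPM. The groups did not overlap, although the third control lay close to the highest Jarid2-KO library (log2 -2.30, SE 0.76, edgeR adjusted p = 0.131). In HSC, control libraries held 9.41, 1.4 and 1.65 CPM and Jarid2-KO libraries 2.49, 1.75 and 1.17 CPM, with overlap.

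Cpa3 (ENSMUSG00000001865, chromosome 3, 20215617 to 20242181) varied least of the 9 between replicates within the Vav groups, relative to its mean. It stood at 15.5 ± 4.25 CPM in control MPP and 8.55 ± 1.07 in Jarid2-KO MPP (mean ± SD, n = 3 each), with single values of 15.9, 19.6 and 11.1 against 7.33, 8.96 and 9.36. In HSC the values were 14, 14.1 and 10.6 CPM in control and 5.23, 7.9 and 10.5 CPM in Jarid2-KO. Jarid2-KO libraries were below all controls in both cell types, narrowly so in HSC, at a log2 of -0.79 (SE 0.31, edgeR adjusted p = 0.225) and -0.85 (SE 0.31, edgeR adjusted p = 0.166). In HSC these 2 genes, Cpa3 and Fcer1a, were the only ones of the 9 without overlap, against 10.7% of all genes lower without overlap. There 0 of 9 passed in edgeR, against 0.569% of all genes, and 3 had an unadjusted p under 0.05, against 17%. DESeq2 called 1, Cma1, against 4.95%. That call rests on almost no counts, since Cma1 held 1, 1 and 0 in control HSC and 0 in each Jarid2-KO HSC library.

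Hdc (ENSMUSG00000027360, chromosome 2, 126593667 to 126619299), the enzyme that makes histamine, did not share this pattern. It stood at 14.2, 24.3 and 25.1 CPM in control MPP and 75.2, 17.5 and 16 CPM in Jarid2-KO MPP. The high value belonged to Jarid2-KO MPP replicate 1, and without that library the fitted log2 difference of Hdc went from 0.79 to -0.36. In HSC, Hdc stood at 10.4, 5.47 and 7.82 CPM in control and 7.72, 13.8 and 16.2 CPM in Jarid2-KO, with overlap (log2 0.61, SE 0.53, adjusted p = 0.57 in edgeR).

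The connective tissue mast cell proteases were close to absent from most Vav libraries. Cma1 (ENSMUSG00000022225, chromosome 14, 55941453 to 55944661) had 1, 1 and 0 counts in control HSC, 0 in each Jarid2-KO HSC library, 5, 24 and 13 in control MPP, and 0, 0 and 75 in Jarid2-KO MPP. Tpsb2 (ENSMUSG00000033825, chromosome 17, 25366550 to 25368094) had 0, 2 and 0, then 0 in each, then 7, 24 and 27, and then 1, 1 and 58 counts in the same groups. A single library, Jarid2-KO MPP replicate 3, thus held the highest values of both, 7.16 and 5.54 CPM. Without it, the fitted log2 difference in MPP went from 1.84 to -6.71 for Cma1 and from 1.04 to -3.81 for Tpsb2. Mcpt4, a further mast cell chymase, also had its Vav maximum there (1.43 CPM, 15 counts), while Mcpt8 and Prss34 were at or near their lowest. Gzmb (ENSMUSG00000015437, chromosome 14, 56258856 to 56262260), the granule protease of cytotoxic lymphocytes that mast cells and basophils can also make, ranged from 0 to 4.39 CPM over the cohort and was at 0 counts in 3 libraries.

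Markers of other blood cells were read in the same Vav libraries. All 10 neutrophil and monocyte granule genes had log2 values above 0 in Jarid2-KO MPP and HSC, with summed levels of 6165 to 23500 CPM in Jarid2-KO MPP and 4817 to 6229 in control MPP; none passed the test. The 8 eosinophil genes summed to 151 to 954 CPM in Jarid2-KO MPP and 394 to 653 in control MPP, and to 129 to 568 CPM in Jarid2-KO HSC and 5.35 to 111.5 in control HSC. All 8 had log2 values above 0 in HSC and 7 in MPP, and Ear6, an eosinophil ribonuclease with near-identical copies, was higher in Jarid2-KO HSC (log2 4.76, SE 0.79, edgeR adjusted p = 0.0193). Mpo, Elane, Epx and Prg2 were above 0 in every library, and the part of these cells in the values of the 9 genes was not tested. The 7 sort and stem cell genes summed to 1636 to 2174 CPM in Jarid2-KO MPP and 2878 to 3727 in control MPP, and 3 of them were lower without overlap. Kit, the receptor for stem cell factor and one of the 7, stood at 998, 777 and 1041 CPM in Jarid2-KO MPP and 1389, 1227 and 1922 in control MPP. Of 7 plasmacytoid dendritic cell genes, 4 were tested and 3 were lower without overlap in Jarid2-KO MPP, with list sums of 262 to 367 CPM against 405 to 467 in control MPP. No gene of these lists passed between genotypes in MPP, and their part in the result was not tested either. Without Jarid2-KO MPP replicate 1, the library with the most granule transcripts, the count of the 9 genes lower without overlap was 5. With any other 1 of the 6 libraries left out, the count was 5 to 7. Taking a library away cannot create overlap, so these counts could not fall and are no check on the result.

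**Figure D2:**
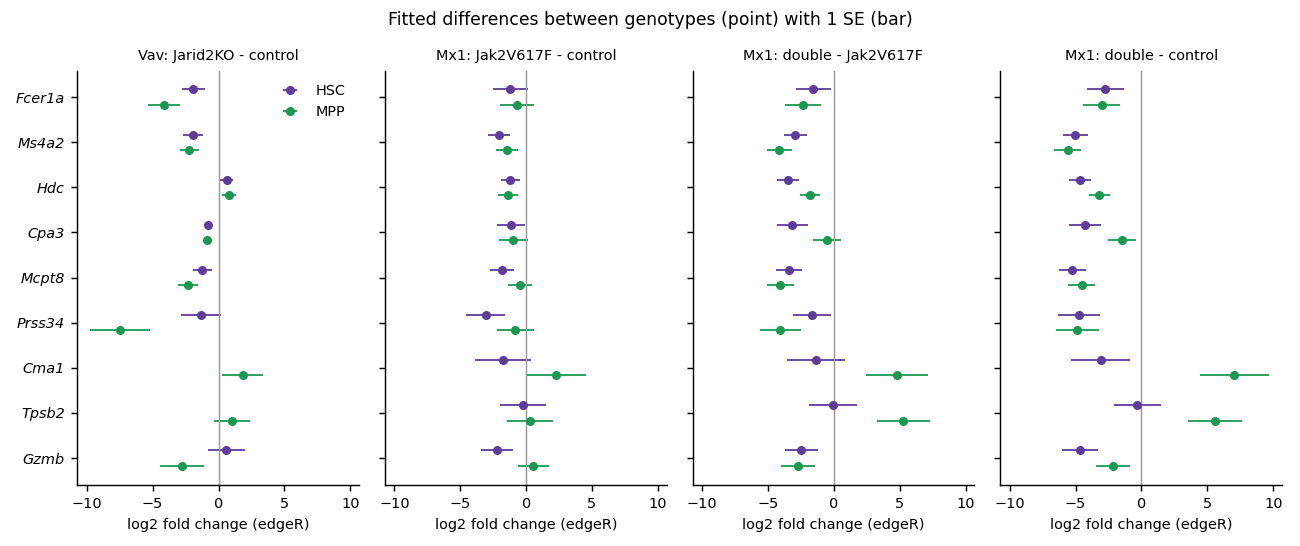
Fitted log2 fold changes (points) with 1 SE (bars) for the 9 genes in HSC and MPP under each difference between genotypes; Cma1 and Tpsb2 are left out for Vav HSC, where the Jarid2-KO libraries hold no count. Most points lie left of 0 in the double mutant panels, and Cma1 and Tpsb2 lie right of it in MPP.

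In the Mx1 cohort the comparison of main interest was the double mutant with control and with Jak2V617F. Double mutant HSC held fewer transcripts of 7 of the 9 genes than either control library, with mean CPM 5.17 to 34 times lower, yet none passed edgeR's test. The margin was narrow for Fcer1a, where the higher double mutant library stood at 3.65 CPM and the lower control at 4.25. In double mutant MPP the basophil genes were low as well, while Cma1 and Tpsb2 were high. In HSC against control, 0 of 9 passed in edgeR, against 0% of 19616 genes, and 6 had an unadjusted p under 0.05, against 6.37%. DESeq2 called those 6 (Cpa3, Ms4a2, Mcpt8, Prss34, Gzmb and Hdc), against 2.76% of genes, and edgeR called the same 6 when only the 4 libraries compared entered the fit, against 2.38%. The 7 lower without overlap compare with 11.9% of all genes, and the median log2 fold change was -4.65 beside 0.112 over all genes. Leaving out any 1 of the 4 libraries gave 7 or 8, but such a count cannot fall when a library is taken away, so it is no check.

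Hdc stood at 337 and 318 CPM in control HSC, 194 and 104 in Jak2V617F HSC, and 21.1 and 9.86 in double mutant HSC. The 3 groups were fully separated in this order. Against control the double mutant difference was a log2 of -4.68 (SE 0.85, edgeR adjusted p = 0.073), and against Jak2V617F it was -3.49 (SE 0.81, edgeR adjusted p = 0.211). In MPP, the values were 290.0 and 61.9 CPM in control, 74 and 78.1 in Jak2V617F and 17.2 and 29.2 in the double mutant. Both double mutant MPP libraries lay below all 4 others (log2 -3.19 against control, SE 0.80, edgeR adjusted p = 0.31).

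Ms4a2 followed the same order in HSC. Its values were 118 and 61.9 CPM in control, 26.2 and 19.5 in Jak2V617F, and 5.26 and 1.44 in the double mutant (log2 -5.01 against control, SE 0.97, adjusted p = 0.073 in edgeR). In MPP, control libraries held 109.9 and 19.6 CPM, Jak2V617F libraries 22.2 and 31.8, and double mutant libraries 1.42 and 1.78 (log2 -5.60 against control, SE 1.01, adjusted p = 0.153 in edgeR). The double mutant libraries were again below the other 4, and in MPP control and Jak2V617F overlapped. Fcer1a, its partner chain, stood at 4.25 and 18.3 CPM in control HSC, 8.47 and 0.94 in Jak2V617F HSC and 0.709 and 3.65 in double mutant HSC. In MPP it stood at 17.8 and 7.33, 6.37 and 11.1, and 0.284 and 3.44 CPM in these groups. For Fcer1a, double mutant and Jak2V617F overlapped in HSC but not in MPP.

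Mcpt8 stood at 35.2 and 98.2 CPM in control HSC, 21.7 and 16.5 in Jak2V617F HSC and 3.37 and 0.554 in double mutant HSC (log2 -5.23 for double mutant against control, SE 1.06, edgeR adjusted p = 0.0748). Control MPP held 105 and 18.8 CPM, Jak2V617F MPP 51.5 and 50.1, and double mutant MPP 4.17 and 2.16 (log2 -4.53 against control, SE 1.03, edgeR adjusted p = 0.227). In both cell types the double mutant libraries were the lowest. Prss34 reached 167 and 297 CPM in control HSC, 39.4 and 16.6 in Jak2V617F HSC and 18.7 and 0.997 in double mutant HSC. In MPP it stood at 586 and 95.1, 274 and 167, and 1.14 and 27.6 CPM, so that the double mutant lay below both other groups in MPP and overlapped Jak2V617F in HSC. The fitted Prss34 differences from control were -4.72 (SE 1.61) in HSC and -4.86 (SE 1.62) in MPP, with edgeR adjusted p of 0.513 and 0.762.

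Cpa3 stood at 62.3 and 130.5 CPM in control HSC, 40.2 and 50.1 in Jak2V617F HSC and 7.8 and 3.65 in double mutant HSC, without overlap. In double mutant MPP its libraries parted, at 2.94 and 68 CPM, against 129 and 32.2 in control and 57.5 and 35.8 in Jak2V617F MPP. Replicate 2 of double mutant MPP thus lay among the controls for Cpa3, and the fitted difference from control, a log2 of -1.47 (SE 1.09, adjusted p = 1 in edgeR), became -4.99 without that library and 0.0021 without control MPP replicate 1. Gzmb stood at 45.8 and 16.3 CPM in control HSC and 1.89 and 1.22 in double mutant HSC, and at 12.2 and 1.97 in Jak2V617F HSC. In MPP it was 5.02 CPM or lower in each of the 6 libraries.

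The library in which Cpa3 stayed high, double mutant MPP replicate 2, also held the highest Cma1 and Tpsb2 of all 24. Cma1 stood there at 86.5 CPM (679 counts) and Tpsb2 at 124 CPM (977 counts). The other double mutant MPP library held 3.03 and 9.1 CPM. Control MPP held 0.241 and 0.324 CPM of Cma1 and 0.0483 and 2.59 of Tpsb2, and Jak2V617F MPP 1.51 and 1.49 of Cma1 and 0.921 and 2.32 of Tpsb2. Both double mutant MPP libraries were therefore above the other 4 MPP libraries for both genes. The margin was wide in replicate 2 and smaller in replicate 1, at 3.03 against at most 1.51 CPM for Cma1 and 9.1 against at most 2.59 for Tpsb2. In HSC neither gene separated the groups: Cma1 ranged from 0 to 4.51 CPM and Tpsb2 from 0.111 to 1.81.

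The fitted differences of double mutant from control MPP were a log2 of 7.06 (SE 2.63, adjusted p = 0.913 in edgeR) for Cma1 and 5.57 (SE 2.05, adjusted p = 0.898 in edgeR) for Tpsb2. Without double mutant MPP replicate 2 they became 3.23 and 2.70. The same library had the most Mrgprb1, a receptor gene of mast cells, at 7.26 CPM (57 counts), where no other library exceeded 0.886. Mcpt4 stood at 1.53 CPM there and at 3.03 in replicate 1, and the mucosal mast cell proteases Mcpt1 and Mcpt2 were at 0 in both. Tpsab1, a tryptase gene closely related to Tpsb2, peaked at 1.78 CPM in replicate 2, and reads could be split between such copies.

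Counts over the 9 genes in MPP ran in both directions. In double mutant against control MPP, 5 were lower without overlap (7.98% of all genes) and 2 higher (14.1% of all genes). In edgeR 0 of 9 passed, against 0% of genes, 6 had an unadjusted p under 0.05 (4.71% of genes), and DESeq2 called 5 (1.48% of genes), of which Tpsb2 was higher and Ms4a2, Mcpt8, Prss34 and Hdc were lower. Against Jak2V617F MPP, 6 were lower (15.4% of genes) and 2 higher (16.9%) without overlap, 5 had an unadjusted p under 0.05 (3% of genes), and DESeq2 called Ms4a2 and Mcpt8 (0.646% of genes). Against Jak2V617F HSC, 5 were lower without overlap (10% of genes), 4 had an unadjusted p under 0.05 (4.68%), and DESeq2 called Ms4a2, Mcpt8 and Hdc (2.29%). In edgeR 0 passed in either comparison, as for all genes. The comparisons with control and with Jak2V617F share the double mutant libraries.

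**Figure D3:**
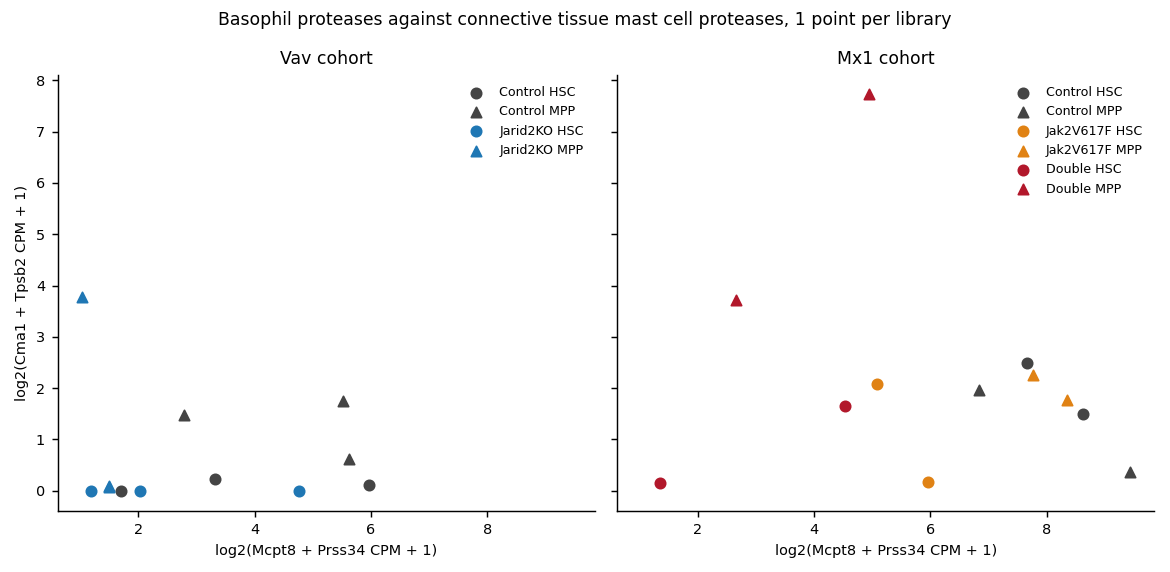
Summed level of the connective tissue mast cell proteases Cma1 and Tpsb2 (vertical) against that of the basophil proteases Mcpt8 and Prss34 (horizontal), each as log2(CPM + 1), with a point per library. Double mutant MPP libraries stand highest in the Mx1 panel, at 12.1 and 211 CPM of Cma1 and Tpsb2, and Jarid2-KO MPP replicate 3 stands highest in the Vav panel at 12.7 CPM.

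Jak2V617F alone was set against control to see whether the kinase variant without Jarid2 loss moved these genes. In HSC all 9 had a fitted log2 below 0 and 6 (Hdc, Cpa3, Mcpt8, Gzmb, Prss34 and Ms4a2) were lower in both Jak2V617F libraries than in both controls, against 13.3% of all genes. None passed in edgeR (0% of genes), 1, Ms4a2 at a log2 of -2.08 (SE 0.85), had an unadjusted p under 0.05, against 1.52% of genes, and DESeq2 and limma-voom called none. In MPP 0 genes were lower without overlap, against 8.47% of all genes (6 lower and 3 higher without control MPP replicate 2, but 1 lower and 6 higher without control MPP replicate 1), 0 had an unadjusted p under 0.05, against 1.35%, and edgeR, DESeq2 and limma-voom called 0. Cma1 was the only 1 of the 9 higher without overlap in Jak2V617F MPP, against 16% of all genes.

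Markers of granulocytes were lower alongside most of the 9 genes in the Mx1 double mutant, and those of lymphocytes were lower in HSC. Cma1 and Tpsb2 went the other way in MPP. Markers of plasmacytoid dendritic cells, and in MPP those of red cells, were not lower. All 10 neutrophil and monocyte granule genes had log2 values below 0 in the double mutant against control in both cell types, and their summed level was 74930 to 79890 CPM in control HSC, 33690 to 58240 in Jak2V617F HSC and 3013 to 5216 in double mutant HSC. All 8 eosinophil genes did so too, with sums of 5481 to 7251, 1162 to 3954 and 28.1 to 293 CPM. Of 12 NK and T cell genes, 10 were tested and 9 were below 0 in HSC, with sums of 784 to 953 CPM in control and 69.1 to 96.6 in the double mutant. Their sums overlapped in MPP, at 157.5 to 881 CPM in control and 84.4 to 176 in the double mutant. In MPP the granule list stood at 18810 to 79210, 22390 to 27730 and 3648 to 6662 CPM. None of these genes passed the test, no defining marker such as Mpo, Elane, Epx or Prg2 was at 0 in an Mx1 library, and the part of these cells in the values above was not tested. Of 10 red cell genes, all had log2 values below 0 in double mutant HSC and 9 above 0 in double mutant MPP against control. Their sums were 2714 to 5158 CPM in double mutant HSC, 5396 to 5985 in control HSC, 4743 to 25030 in double mutant MPP and 2104 to 5637 in control MPP. Of 7 plasmacytoid dendritic cell genes, 5 were tested, and 3 had log2 values above 0 in HSC and all 5 in MPP against control. Their list summed to 248 to 367.5 CPM in double mutant HSC, 166 to 170.4 in control HSC, 292 to 319 in double mutant MPP and 132 to 224.5 in control MPP. Procr, a stem cell marker, stood at 0.0654 and 8.89 CPM in control HSC, 1.11 and 4.02 in Jak2V617F HSC and 25.8 and 74.4 in double mutant HSC.

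Heart transcripts were unevenly placed among the groups. Neither control HSC library exceeded 4%, both Jak2V617F MPP libraries did, and each other group held 1 such library. Double mutant HSC replicates 1 and 2 had 7.61% and 0.52% of their counts in the heart list, and Hdc, Ms4a2 and Mcpt8 were below both control HSC libraries (0.977% and 1.2%) in each. The Mx1 libraries under 4% held heart transcripts too, at a lower share. Among them, Hdc stood at 337 and 318 CPM in control HSC, 194 in Jak2V617F HSC and 9.86 in double mutant HSC. With a term for the 6 libraries above 4%, added after seeing the data, the log2 differences of double mutant from control HSC lay below 0 for all 9 genes, at -4.09 for Hdc, -4.57 for Ms4a2 and -5.06 for Mcpt8. Fcer1a went from -2.74 to -1.82 and Prss34 from -4.72 to -3.20. The edgeR adjusted p rose to 0.112 for Hdc, 0.16 for Ms4a2 and 0.195 for Mcpt8, from 0.073, 0.073 and 0.0748 without the term. Fcer1a was the only 1 of the 9 to pass with that term, in MPP against control (log2 -3.61, SE 0.90, edgeR adjusted p = 0.0258, against 1.58% of genes) and against Jak2V617F (log2 -4.28, SE 0.97, edgeR adjusted p = 0.0229, against 0.591% of genes).

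**Figure D4:**
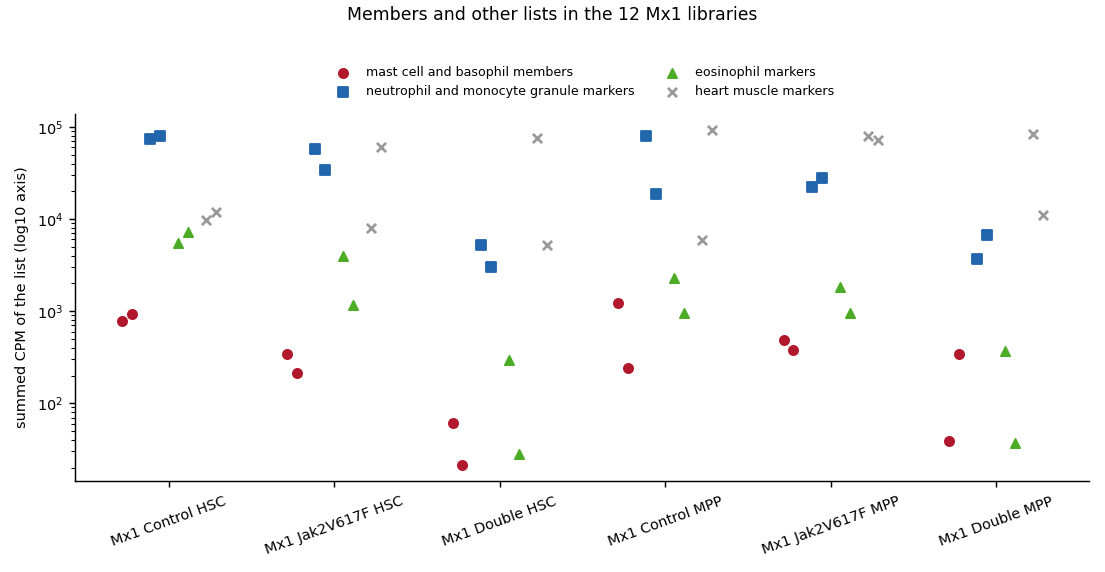
Summed CPM (log10 axis) of the 9 genes and of the neutrophil and monocyte granule, eosinophil and heart lists in each of the 12 Mx1 libraries, with 2 points per group and list. Both double mutant HSC libraries lie below every control and Jak2V617F library for the 9 genes, the granule list and the eosinophil list. The heart list is high in 6 libraries from 5 groups, both Jak2V617F MPP libraries among them, and in neither control HSC library.

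Between the cell types, MPP were set against HSC of the same genotype. In Vav controls, Hdc, Cma1 and Tpsb2 were higher in every MPP than in every HSC library, against 10.7% of all genes higher without overlap. Hdc stood at 5.47 to 10.4 CPM in HSC and 14.2 to 25.1 in MPP (log2 1.38, SE 0.53, edgeR adjusted p = 0.387). For Cma1 and Tpsb2 that is 2 counts in all of HSC, for each gene, against 42 and 58 in MPP. None of the 9 passed in edgeR, against 1.17% of genes, and 2 had an unadjusted p under 0.05, against 8.44%. DESeq2 called 0, against 3.33% of genes. For limma-voom, which called 1, Hdc, the share of all genes is not given. In Jarid2-KO libraries 0 of 9 passed (0.525% of genes), and 5 had an unadjusted p under 0.05 (10.8%). DESeq2 called 2 (2.61%), Prss34, lower in MPP, and Cma1, higher in MPP. Prss34 held 477, 32 and 2 counts in HSC and 1, 3 and 2 in MPP. Cma1 held 0 in each HSC library and 0, 0 and 75 in MPP. Each call thus leaned on 1 library, and the cell types overlapped for both genes.

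In the Mx1 cohort the cell types overlapped for most genes. In controls only Gzmb had an unadjusted p under 0.05 (2.67% of genes), at 45.8 and 16.3 CPM in HSC and 0.965 and 4.53 in MPP (log2 -3.68, SE 1.30, adjusted p = 0.843 in edgeR). In Jak2V617F libraries 0 genes did (1.08% of genes). In double mutant libraries Cma1 and Tpsb2 were higher in MPP without overlap (7.39% of all genes), and with Cpa3 made up the 3 with an unadjusted p under 0.05 (1.62%). In edgeR 0 of 9 passed in each of these 3 comparisons, as for all genes; DESeq2 called 1, Tpsb2, in the double mutant (0.245% of genes), and limma-voom none.

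The wider machinery of these cells was read from 5 further lists. Of 15 genes of receptor signalling, which include the shared gamma chain Fcer1g and the kinases Lyn and Syk, 1 was lower in Jarid2-KO MPP and none in HSC. That gene was Lat2, an adaptor of receptor signalling (log2 -1.42, SE 0.23, edgeR adjusted p = 0.0103). Over all genes 0.948% passed in MPP and 0.569% in HSC, which is the background for the counts of this and the next lists. Of 15 growth factor and cytokine receptor genes, 13 were tested and 1, the IL-18 receptor chain Il18rap, was lower in Jarid2-KO MPP (log2 -1.16, SE 0.25, edgeR adjusted p = 0.0434) and none in HSC. Of 15 mediator genes, 12 were tested and 1, the chemokine Ccl3, was lower in both cell types, at a log2 of -2.50 (SE 0.30) in HSC and -2.39 (SE 0.28) in MPP. None of the 16 transcription factor genes passed in either, and Gata2, which drives the mast cell and basophil lineages, stood at 127 to 358 CPM across the Vav cohort. Of 17 other protease and granule genes, 7 were tested and none passed. Medians of these 5 lists lay between -0.69 and 0.44 in the Vav genotype comparisons, and no gene of any of them passed in the Mx1 genotype comparisons. In double mutant against control HSC the receptor list had a median of -2.12. Of its 14 tested genes, 11 were below 0 and 6 were lower without overlap. The other 4 lists had medians of -0.54 to 0.24 there. Gata2 stood at 72.2 and 61.7 CPM in Mx1 control HSC, 40.1 and 49.4 in Jak2V617F HSC and 79.4 and 294 in double mutant HSC. In MPP of these groups it stood at 112 and 43.9, 24.5 and 38.4, and 55.3 and 86.2 CPM.

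Several genes tied to mature mast cells were at or near 0 throughout. Mcpt1 was at 0 counts in 11 of 12 Vav and all 12 Mx1 libraries, Tpsg1 in 10 and 11, and Mcpt9 in 9 and 10. Il1rl1, the IL-33 receptor of mast cells and basophils, ranged from 0.501 to 6.55 CPM in the Vav and 1.71 to 43.5 CPM in the Mx1 cohort. Cd200r3, a surface receptor of basophils, reached 0.843 and 6.54 CPM.

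Across the 12 libraries of a cohort, pairs of the 9 genes were compared, and some of the pairs are given here. As a description, Pearson's r of log2(CPM + 1) was 0.981 between Cma1 and Tpsb2 in the Vav and 0.852 in the Mx1 cohort. Mcpt8 and Prss34 had r of 0.841 and 0.892, and Mcpt8 and Ms4a2 0.826 and 0.919. Ms4a2 and Hdc had r of 0.947 in the Mx1 cohort and 0.0628 in the Vav cohort. Between Tpsb2 and Ms4a2, r was -0.557 in the Mx1 and -0.0386 in the Vav cohort. For deviations from the group means in the Mx1 cohort, r was 0.631 for Cma1 and Tpsb2 and 0.532 for Mcpt8 and Prss34. It was 0.91 for Ms4a2 and Hdc and -0.234 for Tpsb2 and Ms4a2. In the Vav cohort Cma1 and Tpsb2 both peaked in the same library. The points share library depth and cell make-up.

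Outside the 9, the genes most like the 2 most abundant ones of each cohort were ranked by that r, among genes of at least 2 CPM on average and leaving out predicted genes. In the Mx1 cohort they were Cyp11a1 (r = 0.956), Nat8l (0.893), Chdh (0.884), Pilrb1 (0.862) and Dtx4 (0.857) for Prss34. For Mcpt8 they were Mgl2 (0.944), Olr1 (0.936), Anxa3 (0.928), Pilra (0.928) and Nat8l (0.927). In the Vav cohort Cpa3 was most like Slc15a2 (0.931), Schip1 (0.902), Atf7ip (0.894), Ep400 (0.887) and Clec4e (0.867), and Prss34 like Ncbp3 (0.838), Cfap126 (0.815), Ahnak2 (0.799), Clybl (0.788) and Zfp605 (0.773). Nat8l was the gene named for both proteases.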

How the data were processed

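RNA-seq of 24 libraries was read from 1 table each, grouped and numbered as the labels give it. The submitters' processing notes name mm10 and, without roles, HTSeq 0.8.0, featureCounts 1.4.5 (Subread), STAR 2.0.4 and Partek 6.6. Strand use in counting is not given in the sources used here; no exon of the 9 genes overlaps another gene. Per the file headers, the deposited columns hold raw counts per gene, CPM (counts scaled to the library total) and RPKM (CPM per kilobase of gene length).

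Each cohort was fitted alone on the deposited counts in edgeR 4.0.16 (R 4.3.3; filterByExpr with minimum count 10 and total 15, TMM scaling, robust quasi-likelihood F tests, Benjamini-Hochberg adjustment, threshold 0.05). The Vav fit held 15818 genes with 8 residual degrees of freedom and the Mx1 fit 19616 with 6; all 9 genes were tested in both, in 14 comparisons. SE is the log2 fold change over the square root of F. Without overlap means that all CPM values of 1 group lie on 1 side of the other's. Replicate libraries differed beyond sampling noise (chi-square per degree of freedom at least 15.4 over 18 pairs). The fit was tested on simulated data. Alternatives were DESeq2 1.42.0, its size factors, other filters, limma 3.58.1 (voom with quality weights), the replicate block, fewer groups and each library left out; a heart term, a crossed block and overlap counts without single libraries were added after seeing the data. The replicate numbers did not pair the Vav libraries, where no comparison had every correlation of same-numbered deviations over 0.1.

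The 9 genes and the other lists were chosen with earlier results of these data known. Named outside the 9 were list genes that passed between genotypes, defining markers, and, by rule, the 5 genes most like the 2 most abundant of the 9 in each cohort; Mrgprb1, Mcpt4, Tpsab1, Il1rl1 and Cd200r3 were named after their values were seen. The 8 ChIP samples were not analysed here.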

Additional observations from a re-analysis of the deposited data

How the results depend on the processing

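The edgeR test called 0 of the 9 genes in all 14 comparisons, so there was no called value that an alternative could turn. DESeq2 size factors and the stricter filter also called 0 throughout. Without the filter on low counts, edgeR called, in the Vav cohort, 1 in Jarid2-KO against control HSC, 3 in MPP, 1 for the difference of these effects, 2 in control MPP against HSC and 5 in Jarid2-KO MPP against HSC. In the Mx1 cohort it called 4 and 5 for the double mutant against Jak2V617F in HSC and MPP, 6 and 6 against control, and 2 in double mutant MPP against HSC. DESeq2 gave 1, 3, 1 and 2 in the Vav comparisons (control MPP against HSC had 0), and 3 and 2, 6 and 5, and 1 in the Mx1 comparisons. limma-voom called 1 in Vav control MPP against HSC and 1 in double mutant against control HSC. With only the compared groups, edgeR called 1 in Jarid2-KO against control MPP (0.129% of all genes). It called 1 in control MPP against HSC (2.62%), 1 in Jak2V617F against control HSC (0.0375%) and 6 in double mutant against control HSC (2.38%). The heart term gave 1 in double mutant MPP against Jak2V617F (0.591% of all genes) and 1 against control (1.58%). The share of all genes called is not given without the filter, for limma-voom or with 1 library left out. Those counts are therefore not read as a result about the 9 genes. The cause of the differences between settings was not tested.

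Leaving out 1 library gave 0 to 3 calls in double mutant against control HSC (3 without double mutant HSC replicate 1: Ms4a2, Mcpt8 and Hdc) and 0 to 3 in MPP (the same 3 without control MPP replicate 2), and 0 elsewhere; a lone library was assumed to vary like the others. The replicate block called 1 gene in Jarid2-KO against control MPP, Prss34 (log2 -8.13, edgeR adjusted p = 0.0131), and 0 elsewhere. Same-numbered deviations correlated at -0.131 to 0.129 over all genes tested there, which cannot settle whether same-numbered libraries are paired. Prss34 fell with the replicate number in control HSC (52.3, 7.62 and 0.588 CPM) and in Jarid2-KO HSC (23.8, 1.34 and 0.111). It also fell in control MPP (41.2, 32.1 and 3.92), but not in Jarid2-KO MPP (0.0627, 0.167 and 0.191). Crossed pairing was chosen from these same data, only for comparisons where numbers correlated at -0.431 and -0.5. It called 1 in double mutant HSC against Jak2V617F and 8 in double mutant MPP against control. A pairing picked by its correlation can raise calls for any gene, and the share of all genes called with it is not given. The counts under crossed pairing are therefore no check and are not read as a result about the mast cell and basophil genes. Over all genes, calls moved from 90 to between 14 and 1387 in Jarid2-KO against control HSC, from 150 to 19 to 1512 in MPP, from 185 to 61 to 742 in control MPP against HSC and from 83 to 23 to 563 in Jarid2-KO MPP against HSC. From 0 they reached 459 and 633 for double mutant against control HSC and MPP, 539 and 116 against Jak2V617F, 74 for the difference between Jarid2-KO effects and at most 45 elsewhere. Groups held 2 or 3 libraries, and the biological coefficient of variation was 0.337 (Vav) and 0.786 (Mx1).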
